A study of Mus musculus with 23 samples.

Results

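The complement components and receptors described here were Cfb, C4b, C1qa, C1qb, C1qc, C2, Cfp, C3ar1, C5ar1 and Vsig4, chosen by gene symbol. All 10 were on the array, each with 1 of its 22203 probe sets, and all were followed through 6 groups of sorted mouse microglia, 23 samples in all. Cells positive for CD45 and CD11b came from cortex plus hippocampus. From wild-type mice of strain C57BL6 (WT) there were 4 young samples (3 months) and 4 aged samples (12 months), and from the amyloid line APPswlnd (APP) 3 young samples (3 months) and 4 older ones (12 months). The tau line P301S (PS19), here TAU, contributed 4 young samples (3 months) and 4 older ones, for which the titles say 12 months and the age and source fields 9 months; 9 was used. The older APP and TAU samples are labelled active microglia and were isolated as Clec7a positive cells, called gated below, while the labels of the 4 remaining groups mention no Clec7a selection. APPswlnd and PS19 carry human APP and human tau transgenes with disease mutations. Tau in PS19 is driven by the mouse prion promoter, and the labels name no promoter for APPswlnd. Transgene, pathology and gate therefore differ together between gated and aged WT cells, and age differs too in the case of TAU. Replicates are titled biological, with no word on whether each came from its own mouse, so p-values measure the spread between these samples.

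Complement is a cascade of plasma and tissue proteins that tags surfaces for uptake and signals to phagocytes. C1q, built from the products of C1qa, C1qb and C1qc, starts the classical pathway, which cleaves C4 and C2. Factor B, encoded by Cfb, and properdin, encoded by Cfp, belong to the alternative pathway, which amplifies the deposition of C3. C3ar1 and C5ar1 encode receptors for the fragments C3a and C5a, and Vsig4 encodes a macrophage receptor for C3b and iC3b. In the brain, microglia are the main source of C1q, and complement is known for its part in synapse removal.

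Factor B set the gated groups apart. Cfb lay at background in all 4 ungated groups and in gated APP microglia, and was above background in each gated TAU sample (8.38 to 10.27, background 7.83). C4b (1.91-fold and 2.2-fold) and C1qc (1.73-fold and 2.03-fold) rose in gated APP and gated TAU. C1qa, C1qb and, between levels at background, C2 passed the test in gated TAU and not in gated APP. None of these 5 genes differed between the gated groups by the test. The receptor genes C3ar1, C5ar1 and Vsig4 and the properdin gene Cfp were called in no comparison.

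Values are log2 signals per probe set, so that a difference of 1 is a doubling. They describe RNA from many sorted cells at once, in which fewer cells of a type and less RNA per cell cannot be told apart. The level of background was set in each group at the 95th percentile of 1449 probe sets for chemosensory receptors, genes not expected in microglia, and lay between 7.73 and 8.12. A gene was called where its limma p, adjusted by Benjamini-Hochberg across the 22203 probe sets, was under 0.05. The 23 arrays had medians from 6.87 to 7.13 and SDs from 2.40 to 2.60. Aged WT replicates 2 and 4, together with young TAU replicate 4, had the narrowest spread (SD 2.40 to 2.41), and counts are also given without those aged WT samples. All 11 measured microglia markers were above background in every group, and of these 1 (Trem2) rose and 5 fell in gated APP, and 1 (Trem2) rose and 6 fell in gated TAU. Of markers of other cells, 4 of 10 for border and perivascular macrophages, 0 of 6 for monocytes, 0 to 2 of 7 for neutrophils, 4 to 5 of 8 for astrocytes, 1 of 7 for oligodendrocyte lineage, 4 of 8 for neurons, 1 to 2 of 7 for endothelial cells and pericytes, 0 to 1 of 6 for T and NK cells and 0 of 2 for B cells were above it.

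C1qa, C1qb and C1qc are neighbours on the same chromosome, and the sequences ahead of 2 of these start sites are shown because all C1q genes were higher in gated TAU. RefSeq promoter windows (GRCm38.p6) were matched for 6 of the 10 genes, C1qb, C1qc, Cfp, C3ar1, C5ar1 and Vsig4, and not for C1qa, C2, C4b or Cfb. The window runs from 250 to 31 bases before the start site, at chr4:136886231-136886450 for C1qb and chr4:136892945-136893164 for C1qc, both on the minus strand and written 5′ to 3′. Capitals mark matches to the motifs searched.
C1qb: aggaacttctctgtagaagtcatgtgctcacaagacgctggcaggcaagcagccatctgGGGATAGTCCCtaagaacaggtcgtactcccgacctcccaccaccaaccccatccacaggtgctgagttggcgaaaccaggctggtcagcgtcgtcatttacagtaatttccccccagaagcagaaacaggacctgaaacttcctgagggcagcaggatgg
C1qc: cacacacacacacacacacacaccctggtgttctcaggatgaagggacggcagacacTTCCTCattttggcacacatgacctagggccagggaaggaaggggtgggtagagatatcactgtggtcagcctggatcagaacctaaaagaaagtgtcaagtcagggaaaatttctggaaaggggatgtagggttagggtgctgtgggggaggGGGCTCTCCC
The motifs, searched on both strands, were the interferon-stimulated response element (GAAA, any 2 bases, GAAA), the gamma activated sequence (TTCNNNGAA), an NF-kB-like motif (GGGA, any 4 bases, CC), an AP-1-like motif (TGANTCA) and a PU.1-like motif (GAGGAA). The C1qb window held the NF-kB-like letters once on each strand, in overlapping matches that begin 191 and 190 bases before the start. The C1qc window held them once, on the minus strand at 40 bases, and the PU.1-like letters once, on the minus strand at 193 bases. Of 32851 windows of this length in the table, 15.5% held the NF-kB-like and 20.4% the PU.1-like letters. The other 3 motifs, in 2.63%, 6.27% and 6.12% of windows, had no match in any of the 6 genes, and Vsig4 held the PU.1-like letters at 155 and 53 bases before its start. A match describes letters and does not show a binding site.

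The 3 C1q genes read higher in every gated sample than in any aged WT sample, and C1qc had the largest difference of the 3. C1qc, which encodes the C chain, read 15.52, 15.34, 15.64 and 14.87 in aged WT, 16.23, 16.00, 16.28 and 16.02 in gated APP microglia, and 16.73, 16.30, 16.38 and 16.05 in gated TAU. Every gated sample lay above every WT sample, young or old. C1qc rose 1.73-fold in gated APP (log2 fold change 0.79 ± 0.21, SE; adjusted p = 0.0156) and 2.03-fold in gated TAU (1.02 ± 0.21, adjusted p = 0.00234). In gated APP the call was lost without WT replicate 4 (adjusted p = 0.0775) or APP replicate 3 (0.0525), and with quantile normalization (0.0753). In gated TAU it was kept without any single sample of either group (adjusted p at most 0.0137), but not without WT replicates 2 and 4 together (0.0607).

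C1qb, the gene of the B chain, read 15.73, 15.44, 15.99 and 15.19 in aged WT, 16.68, 16.04, 16.22 and 16.10 in gated APP microglia, and 16.58, 16.38, 16.72 and 16.41 in gated TAU. The gated samples again lay above all aged WT samples. C1qb rose in gated TAU (0.94 ± 0.23, adjusted p = 0.0132; 0.0549 without WT replicate 4) and stood at 0.67 ± 0.23 in gated APP, where it was not called (adjusted p = 0.0808), although it was without WT replicate 3 (0.0335). C1qa, the gene of the A chain, read 17.69 to 18.05 in aged WT, 18.27 to 18.47 in gated APP microglia and 18.26 to 18.59 in gated TAU. Its differences were the smallest of the 3, 0.46 ± 0.15 in gated APP (not called, adjusted p = 0.0654; 0.0483 without WT replicate 3) and a rise of 0.53 ± 0.15 in gated TAU (adjusted p = 0.0315). That call was lost without WT replicate 1, 2 or 4 (adjusted p = 0.0618, 0.0579 and 0.107) or TAU replicate 1 or 3 (0.0941 and 0.08). With quantile normalization the C1qa difference shrank to 0.23 in gated TAU (adjusted p = 0.345) and 0.16 in gated APP (0.559).

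C1q genes also varied among the young samples. In young TAU C1qb read 16.43, 15.83, 15.24 and 15.05, and replicate 1, the highest, was also the highest of its group for C1qa (18.26) and C1qc (15.71). Its C1qb and C1qa values lie within the range of the gated samples. The SD of C1qb was 0.62 in young TAU against 0.16 in young WT and 0.09 in young APP. Between gated APP and gated TAU the differences were -0.07, -0.26 and -0.23 (log2, APP minus TAU) for C1qa, C1qb and C1qc, each inside overlapping samples and none called (adjusted p = 0.966, 0.841 and 0.839). The 95% confidence interval was -0.39 to 0.24 for C1qa, -0.75 to 0.22 for C1qb and -0.66 to 0.20 for C1qc.

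**Figure D1:**
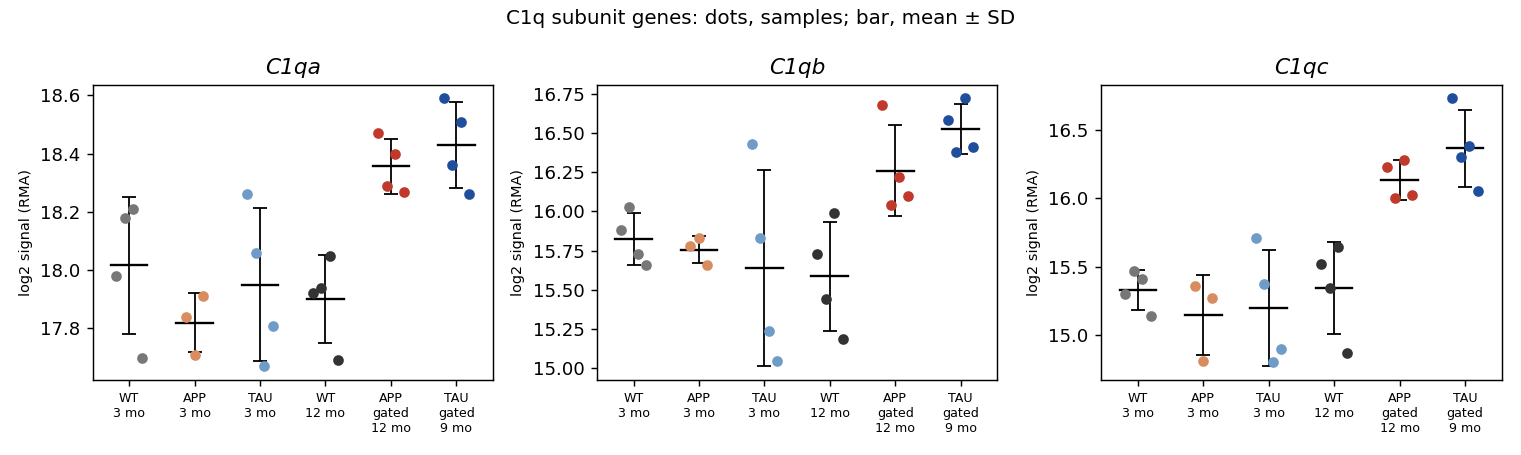
Log2 signal of C1qa, C1qb and C1qc in each of 23 samples by group (x axis); dots are samples, horizontal bars means and whiskers SD, and the axes are cut to the range of each gene. All 8 gated samples lie above the 4 aged WT samples for each gene, and 1 young TAU sample reaches the gated range for C1qb (16.43) and C1qa (18.26).

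C4b encodes complement C4, the substrate of the activated C1 complex. It read 9.86, 9.60, 9.22 and 9.33 in aged WT, 10.90, 10.06, 10.08 and 10.71 in gated APP microglia, and 11.49, 10.67, 9.89 and 10.50 in gated TAU. All gated samples were above all aged WT samples, the nearest being TAU replicate 3 at 9.89 and WT replicate 1 at 9.86. C4b rose 1.91-fold in gated APP (0.94 ± 0.25, adjusted p = 0.0186) and 2.2-fold in gated TAU (1.14 ± 0.25, adjusted p = 0.00499). The APP call was lost without WT replicate 4 (adjusted p = 0.0586), APP replicate 1 (0.081) or APP replicate 4 (0.0563), and both calls when only the 2 groups compared entered the fit (0.0539 and 0.0613). The gated groups did not differ by the test (-0.20, 95% confidence interval -0.72 to 0.32, adjusted p = 0.919), and without TAU replicate 1 the sign turned (0.08).

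C4b has a near-identical neighbour, C4a, which RefSeq lists as a transcribed pseudogene in C57BL/6J, and how far probes read both was not tested. C4a was also higher, by 1.32 ± 0.32 (adjusted p = 0.0081) in gated APP and by 1.28 ± 0.32 (adjusted p = 0.0119) in gated TAU, but stayed at the level of background throughout, at 7.04 or below in every sample, so no fold is given. Its TAU call was lost without TAU replicate 1 (adjusted p = 0.0513), and its APP call when only the 2 groups compared entered the fit (0.0922). Without WT replicates 2 and 4 together both were lost (0.073 and 0.0824). Astrocytes also make C4, and the astrocyte marker Gfap read 8.17, 7, 7.39 and 9.08 in gated APP against 5.57 to 6.03 in gated TAU and 5.43 to 5.62 in aged WT. Gfap was thus higher in gated APP, and at background in gated TAU and aged WT, and its part in the C4b result was not tested. The 8 astrocyte markers summed to 64.87 to 73.56 in aged WT, 64.27 to 72.54 in gated APP microglia and 60.04 to 71.56 in gated TAU, with Aqp4 and Gja1 at background in all groups. Gfap was the 1 of these 8 called in gated APP against aged WT. The median log2 fold change of the 8 was negative, -0.30 in gated APP and -0.60 in gated TAU.

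C2 encodes the protease that joins the C4b fragment to form the classical C3 convertase, and is a close relative of factor B. RefSeq places C2, Cfb, C4a and C4b as near neighbours. C2 read 5.92, 6.36, 5.92 and 6.77 in aged WT, 7.28, 6.48, 7 and 7.18 in gated APP microglia, and 7.02, 7.45, 8.06 and 6.74 in gated TAU. Groups overlapped, and all means lay below background. C2 was called higher in gated TAU (1.08 ± 0.27, adjusted p = 0.0139), between levels at background, and the call was lost without WT replicate 1 (0.0526) or TAU replicate 3 (0.0669). In gated APP the value was 0.74 ± 0.27 (adjusted p = 0.0994), and C2 was called without APP replicate 2 (0.0498).

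Cfb, the factor B gene, read 5.36, 5.53, 5.26 and 5.43 in aged WT and 6.51, 5.96, 5.17 and 5.55 in gated APP, against 9.39, 10.27, 8.84 and 8.38 in gated TAU. The young groups ranged from 5.23 to 5.63 in WT, 5.27 to 5.93 in APP and 5.37 to 5.69 in TAU. Every gated TAU sample lay above background and above each of the other 19 samples, and Cfb means in all other groups were below background. Cfb rose in gated TAU against aged WT by 3.83 ± 0.30 on the log2 scale (9.22 ± 0.81 against 5.39 ± 0.11, SD, n = 4 each; adjusted p = 5.66e-09), which as a bound over the WT background was at least 2.15-fold. In gated APP the mean was 5.80 ± 0.57, the difference from WT was 0.40 (95% confidence interval -0.21 to 1.02) and it was not called (adjusted p = 0.462).

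The difference between the gated groups was itself tested. Cfb was at -3.42 ± 0.30 (log2, gated APP minus gated TAU; 95% confidence interval -4.04 to -2.81; adjusted p = 2.07e-07), at least 2.8-fold higher in TAU over the APP background. It was the 1 of 10 members called between the gated groups, where 0.928% of all probe sets were called, 0.626% higher and 0.302% lower in APP. It was also the 1 member without overlap between them, as for 2.56% of probe sets with all APP samples higher and 2.14% with all lower. Leaving out single samples moved the difference between -3.70 and -3.07 (adjusted p at most 2.49e-06). Both gated groups were sorted for Clec7a, so the gate is shared, while line, pathology and 12 against 9 months differ and cannot be told apart. The change of Cfb from young to gated TAU exceeded the change from young to aged WT by 3.79 ± 0.42 (interaction, adjusted p = 3.92e-06), while for APP the same term was 0.31 ± 0.44 (adjusted p = 0.799).

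Some border macrophage markers were also higher in gated TAU than in gated APP. Mrc1 read 11.03, 9.75, 11.43 and 10.66 in gated TAU against 8.39 to 9.40 in gated APP (adjusted p = 0.0243 for the difference). Ms4a7 read 11.48, 12.23, 14.27 and 11.17 against 9.37 to 10.26 (adjusted p = 0.00436). In aged WT Mrc1 read 9.80 to 10.51, overlapping gated TAU (0.52, limma adjusted p = 0.449) and above every gated APP sample (-1.16, adjusted p = 0.0536). Against aged WT, at 8.09 to 9.27, Ms4a7 was called higher in gated TAU (3.56, adjusted p = 1.82e-05) and not in gated APP (1.005, adjusted p = 0.218). The 10 markers of this list summed to 79.04 to 87.39 in gated TAU, 73.87 to 77.31 in gated APP and 76.08 to 77.93 in aged WT, with Cd163, Lyve1, F13a1, Clec4n and Cd209f at background in all groups. Mrc1 and Ms4a7 were the 2 of 10 called between the gated groups. Folr2 went the other way, above background in gated APP alone and called higher there against aged WT, while Cbr2 was called lower there. In young TAU, where Cfb was at background, the sum was 78.60 to 84.82, Mrc1 read 11.08 to 12.16 and Ms4a7 read 9.11 to 10.42. Mrc1 was thus in the range of gated TAU or above it, while Ms4a7, like Cfb, was lower in each young TAU sample than in any gated TAU sample (Ms4a7 TAU interaction 3.11, adjusted p = 0.00821). The part of these markers in the Cfb difference was not tested.

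**Figure D2:**
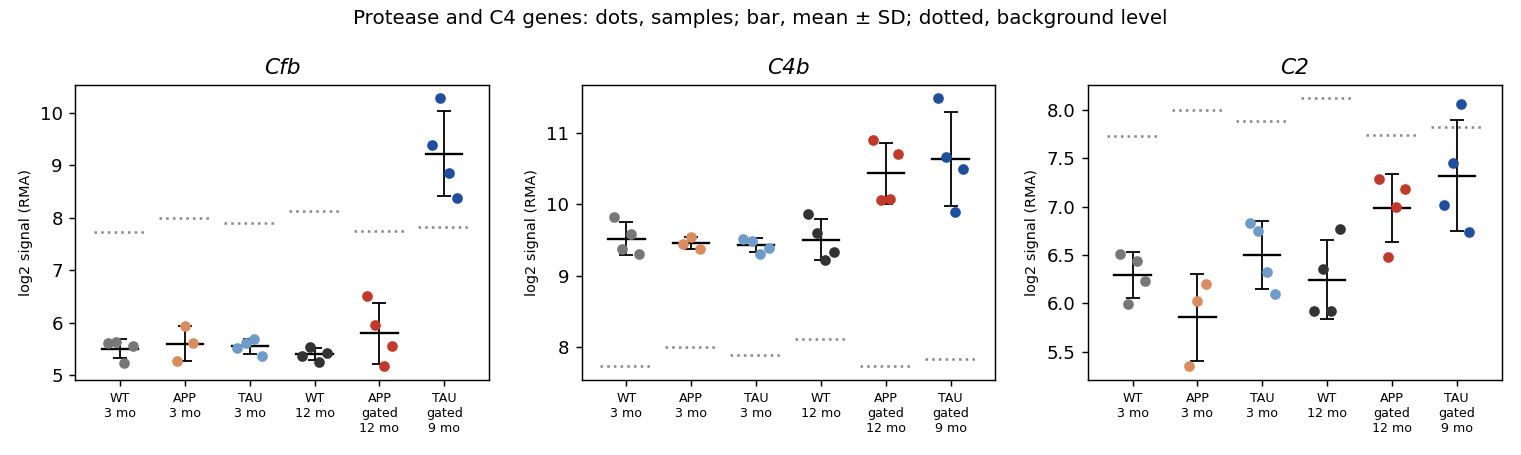
Log2 signal of Cfb, C4b and C2 in each of 23 samples by group (x axis); dots are samples, horizontal bars means, whiskers SD and dotted lines the background level of the group (axes cut to each gene's range). Cfb leaves background in the 4 gated TAU samples alone (8.38 to 10.27), C4b is higher in both gated groups, and C2 means lie below background.

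Properdin stabilises the alternative convertase that factor B forms. Its gene Cfp read 6.47, 6.75, 6.57 and 6.82 in gated APP, 6.94, 6.62, 7.43 and 7.78 in gated TAU and 6.72 to 7.32 in aged WT. All group means were below background, the highest being young APP at 7.56 ± 0.51 (SD, n = 3). Cfp was called in neither gated group (adjusted p = 0.354 in APP and 0.798 in TAU) nor between them (0.485).

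C3ar1, the gene of the C3a receptor, was high in every group and called in no comparison. C3ar1 means ran from 16.02 ± 0.35 in aged WT, 16.07 ± 0.52 in young TAU, 16.21 ± 0.18 in gated TAU, 16.22 ± 0.15 in gated APP and 16.29 ± 0.33 in young WT to 16.51 ± 0.33 in young APP (SD). No neighbours in that order differed by more than their SDs. Against aged WT the difference was 0.20 in gated APP (95% confidence interval -0.28 to 0.68, adjusted p = 0.664) and 0.19 in gated TAU (-0.29 to 0.67, adjusted p = 0.682). Both signs turned with quantile normalization (-0.07 and -0.02).

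C5ar1, the C5a receptor gene, was near the background level in every group. It read 8.60, 8.44, 8.83 and 8.41 in gated APP, above all aged WT samples (8.30, 7.59, 8.26 and 7.80), and 8.63, 7.80, 8.04 and 8.06 in gated TAU, overlapping them. The difference of 0.58 in gated APP was not called (95% confidence interval 0.01 to 1.16, adjusted p = 0.225), nor was that of 0.15 in gated TAU (-0.43 to 0.72, adjusted p = 0.811), which turned negative without TAU replicate 1 (-0.02). Vsig4 stayed below background in all groups, between 5.30 and 6.53 in single samples, and was called in no comparison (adjusted p = 0.393 in gated APP and 0.996 in gated TAU).

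**Figure D3:**
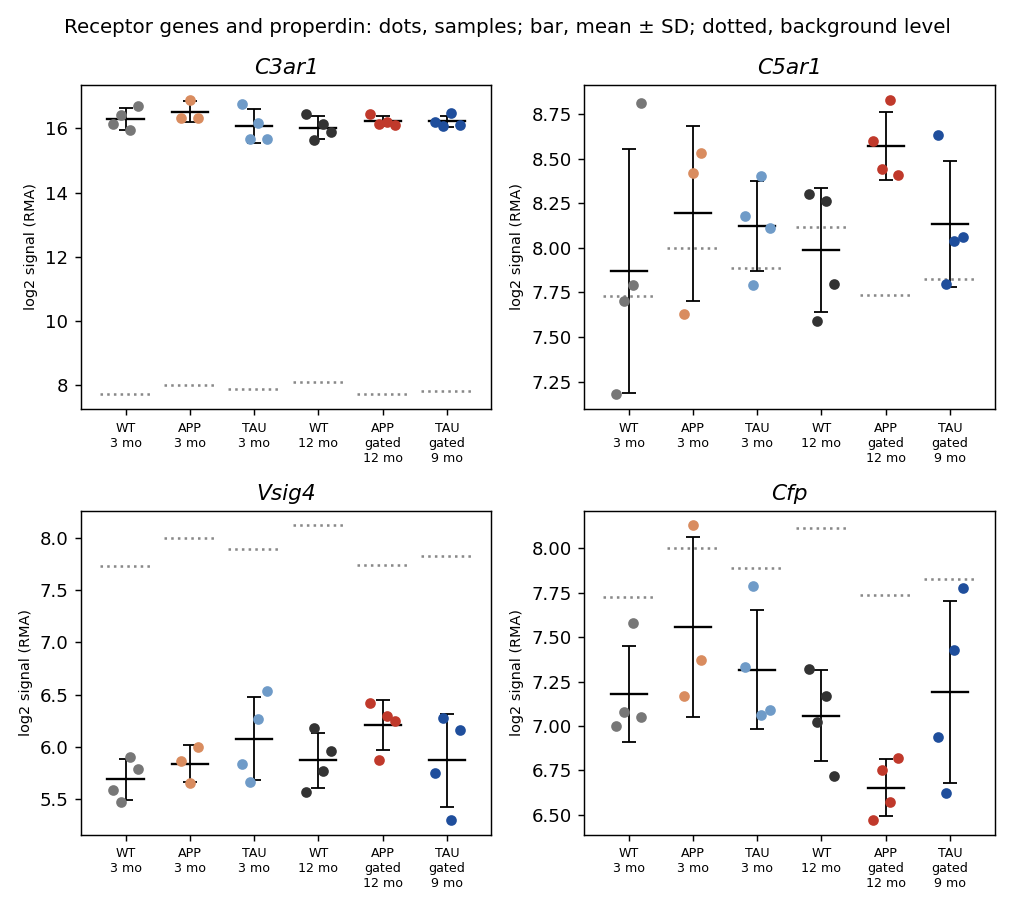
Log2 signal of C3ar1, C5ar1, Vsig4 and Cfp in each of 23 samples by group (x axis); dots are samples, horizontal bars means, whiskers SD and dotted lines the background level of the group (axes cut to each gene's range). C3ar1 lies near 16 in every group, C5ar1 lies around the background level, and the Vsig4 and Cfp means lie below it.

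Of the 10 members, 2 rose in gated APP (C1qc and C4b) where 5.6% of all probe sets were called higher (9.08% in either direction). In gated TAU 6 were called higher (C1qa, C1qb, C1qc, C4b, Cfb and, between levels at background, C2) where 5.09% were (8.76%). Limma called 0 members lower, against 3.48% and 3.67% of all probe sets, and the 6 members with an unadjusted p under 0.05 in each comparison, as 21.4% and 22% of all probe sets had, were all higher. The median log2 fold change of the members was 0.52 in gated APP and 0.73 in gated TAU, against -0.06 and -0.05 over all probe sets. Members were chosen with earlier results of these data known, so the shares and medians here describe them and do not test the set. Both comparisons use the same aged WT samples. All 4 gated samples lay above all 4 aged WT samples for 5 members in gated APP (C1qa, C1qb, C1qc, C4b and C5ar1; 6.72% of all probe sets) and for 5 in gated TAU (C1qa, C1qb, C1qc, C4b and Cfb; 6.38%). No member lay wholly below, as 4.83% and 5.55% of all probe sets did. Without WT replicates 2 and 4 the counts were 0 in gated APP and 3 in gated TAU (C2, C4b and Cfb). The APP count was 0 without WT replicate 4 alone, 1 without APP replicate 1, 3 or 4, and 4 without WT replicate 3, while the TAU count was 4 without WT replicate 1 or 4 or TAU replicate 3. In a fit of only the groups compared they were 1 (C1qc) and 3 (C1qb, C1qc and Cfb).

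**Figure D4:**
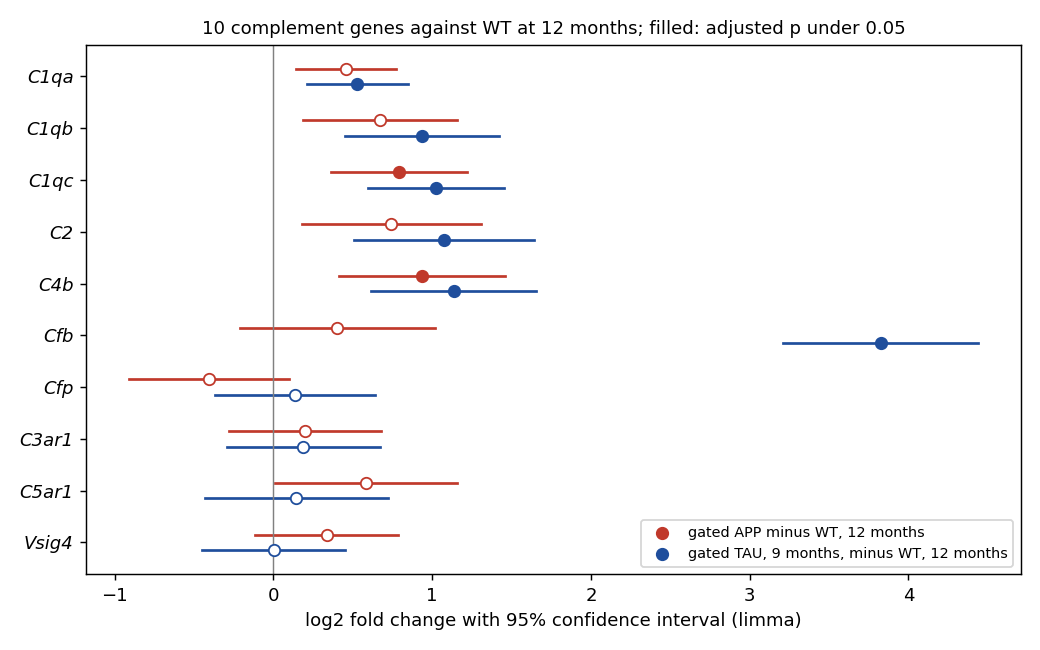
Log2 fold change (x axis) of the 10 genes in gated APP and gated TAU microglia, each against the same 4 WT samples at 12 months; points are limma estimates, lines 95% confidence intervals, and filled points have an adjusted p under 0.05. C1qa, C1qb, C1qc, C2 and C4b have overlapping intervals in the 2 comparisons, while those of Cfb (-0.21 to 1.02 and 3.21 to 4.44) do not overlap.

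In comparisons of ungated groups no member was called. At 3 months limma called 0 of 10 in APP and 0 of 10 in TAU against WT (0% of all probe sets in each), and 0 members had an unadjusted p under 0.05, as 2.92% and 4.15% of all probe sets did. WT mice at 12 against 3 months also gave 0 of 10 called (0.036% of all probe sets) and 0 members with an unadjusted p under 0.05, against 8.95%. The largest member differences were 0.44 in size in young APP (C2, -0.44, at background), 0.39 in young TAU (Vsig4, at background) and 0.27 in size with age (C3ar1, -0.27). C4b had close means in the ungated groups, 9.52 ± 0.24 in young WT, 9.45 ± 0.09 in young APP, 9.43 ± 0.10 in young TAU and 9.50 ± 0.29 in aged WT. The interaction terms called 2 members for TAU (Cfb and C1qc, both higher; 2.6% of all probe sets higher, 1.15% lower, 3.75% in all) and 0 for APP (2.82% higher, 0.977% lower, 3.8% in all), where 6 had an unadjusted p under 0.05 against 15.1% of all probe sets. C1qc was at 1.16 ± 0.29 in TAU (adjusted p = 0.0263) and at 0.97 ± 0.30 in APP (0.0833; 0.0471 without aged WT replicate 3). The TAU call was lost without young WT replicate 2 or 3, young TAU replicate 3 or 4, aged WT replicate 4 or gated TAU replicate 1 (adjusted p = 0.0523 to 0.0727).

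Beyond the members, a list of 57 complement genes had 54 measured, 44 of them outside the 10, and 10 to 13 of those 44 were above background in a given group. In gated APP 3 of 44 rose (Masp1, C4a and Itgax; 5.6% of all probe sets) and 2 fell (Itgam and Csmd3; 3.48%), shares near those of all probe sets. In gated TAU 6 rose (Masp1, C4a, Itgax, Itgb2, C1qbp and Cpn2; 5.09% of all probe sets) and 2 fell (Itgam and Csmd3; 3.67%). The medians of the 44 were -0.10 and 0.09. The list was chosen with earlier results of these data in view.

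Among recognition and initiation genes, 1 of 12 beyond C1q was called, the lectin pathway protease gene Masp1. It read 8.29, 8.29, 8.80 and 8.31 in aged WT, 11.29, 11.59, 11.37 and 10.87 in gated APP microglia, and 9.55, 9.75, 9.26 and 9.11 in gated TAU, so that the 3 groups did not overlap. The aged WT mean of 8.42 lay just above background (8.12), so folds over it start from near background. Masp1 rose 7.25-fold in gated APP (2.86 ± 0.29, adjusted p = 3.01e-07) and 1.99-fold in gated TAU (0.995 ± 0.29, adjusted p = 0.0337). The difference of 1.86 ± 0.29 between the gated groups was called (adjusted p = 0.000753). Masp1 thus differed between the gated groups in the direction opposite to Cfb. The endothelial marker Flt1 was also higher in gated APP (8.63, 10.34, 9.95 and 8.71) than in aged WT (7.06 to 7.75; adjusted p = 5.18e-05) and gated TAU (7.58 to 8.31; adjusted p = 0.00813), as was Gfap (adjusted p = 1.31e-05 and 0.000861). The 7 endothelial and pericyte markers summed to 45.12 to 58.70 in gated APP, 47.73 to 52.68 in aged WT and 45.87 to 47.79 in gated TAU, with Cldn5, Pdgfrb and Rgs5 at background in all groups. Of these 7, Flt1 was called higher and Pecam1 lower in gated APP against aged WT by limma, with Pecam1 at background in both groups. The part of Flt1 and Gfap in the Masp1 result was not tested. The TAU call was lost without WT replicate 1, 2 or 4 or TAU replicate 1, 2 or 3 (adjusted p = 0.0538 to 0.1), and without WT replicates 2 and 4 together (0.2).

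Limma called 0 of 7 terminal component genes (Hc, C6, C7, C8a, C8b, C8g and C9) in either gated group. Of all probe sets 9.08% in gated APP and 8.76% in gated TAU were called. C8g alone had means above background, the lowest being 9.31 in gated APP. Means of Hc, C6, C7, C8a, C8b and C9 lay below it in every group, so their lack of calls shows little. C6 in gated APP was the 1 with an unadjusted limma p under 0.05 (0.46, adjusted p = 0.159), between levels at background. Of all probe sets 21.4% in gated APP and 22% in gated TAU had such a p. Among receptors, Itgam and Itgax encode the alpha chains of complement receptors 3 and 4, which share the beta chain of Itgb2. Itgax rose from background, at least 13.7-fold in gated APP and at least 30.4-fold in gated TAU, and was lower in APP than in TAU (-1.15 ± 0.22, adjusted p = 0.00711; 0.0804 with only the groups compared). Itgam, whose product CD11b was used in the sort, read 14.60 to 15.07 in aged WT, 13.76 to 14.16 in gated APP microglia and 13.42 to 13.82 in gated TAU. It fell by 1.16 ± 0.24 in gated TAU (adjusted p = 0.00314) and by 0.81 ± 0.24 in gated APP (adjusted p = 0.0363), the latter lost without WT replicate 1, 3 or 4 or APP replicate 1, 3 or 4 (0.0509 to 0.121) and with arrays centred on their medians (0.0933). Itgb2 rose in gated TAU (0.95 ± 0.25, adjusted p = 0.0196), a call lost without WT replicate 2 or 4 or TAU replicate 1 or 3 (0.0578 to 0.0824), and was at 0.76 ± 0.25 in gated APP (adjusted p = 0.0656), where it was called without WT replicate 3 (0.0106). Without WT replicates 2 and 4 together Itgb2 was at 0.55 in gated TAU.

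Among 18 regulators, Csmd3, which encodes a large membrane protein with complement control domains, fell to background in both gated groups. It read 8.58, 7.26, 8.79 and 8.10 in aged WT, just above background on average, 6.31 to 7.14 in gated APP and 5.77 to 6.87 in gated TAU. It was at -1.52 ± 0.29 in gated APP (at least 1.36-fold lower, adjusted p = 0.00103) and at -2.07 ± 0.29 in gated TAU (at least 1.28-fold lower, adjusted p = 3.96e-05). C1qbp, named for a C1q binding protein that is mainly mitochondrial, rose 1.72-fold in gated TAU (adjusted p = 0.0466) in overlapping samples. The call was lost without WT replicate 1, 2 or 4 or TAU replicate 1, 2 or 3 (0.0764 to 0.153), and in gated APP, where C1qbp was not called (adjusted p = 0.112), it was without WT replicate 3 (0.0487) or APP replicate 1 (0.0315). The Cpn2 call in gated TAU lay between levels at background, and was lost without WT replicate 1, 3 or 4 or TAU replicate 2 or 3 (0.0516 to 0.158).

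**Figure D5:**
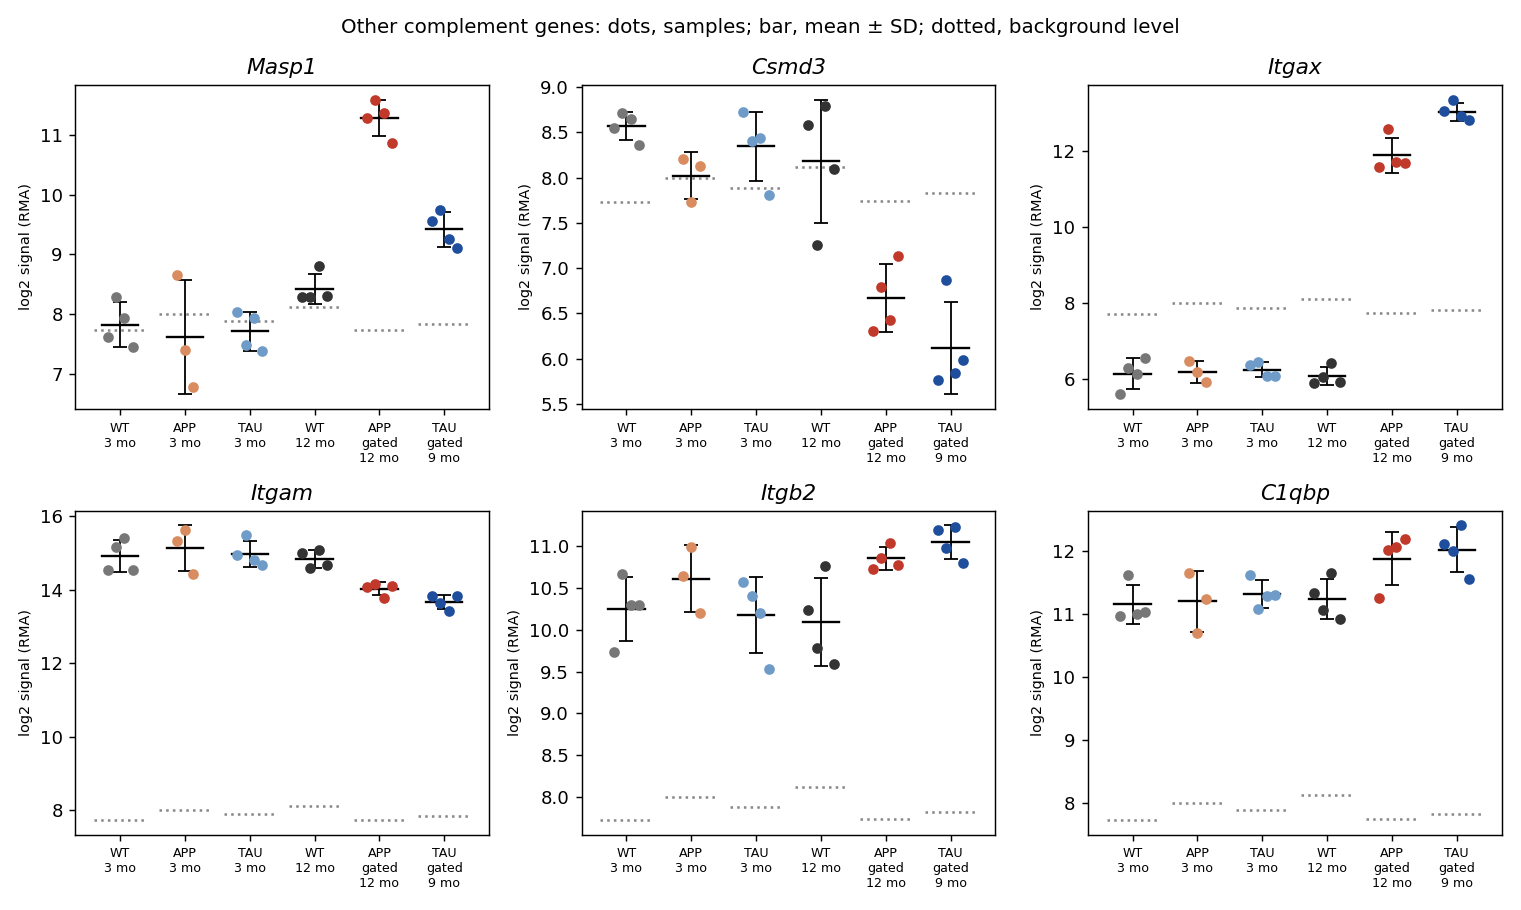
Log2 signal of Masp1, Csmd3, Itgax, Itgam, Itgb2 and C1qbp in each of 23 samples by group (x axis); dots are samples, horizontal bars means, whiskers SD and dotted lines the background level of the group (axes cut to each gene's range). Masp1 is highest in gated APP (10.87 to 11.59), Itgax in gated TAU (12.83 to 13.36), and Csmd3 lies below background in both gated groups.

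Genes most like each called member were taken as the 3 highest Pearson correlations over all 23 samples among 7711 named probe sets above background in at least their highest group. The 23 samples hold gated and ungated groups and share 1 normalization, so these values are a description without a test. Cfb was most like Postn (r = 0.93), which encodes the matrix protein periostin, Siglecf (r = 0.92), a sialic acid receptor gene, and H2-Eb1 (r = 0.92), an MHC class II gene. H2-Eb1 stood at 8.87 ± 0.78 in aged WT, 9.63 ± 0.48 in gated APP microglia and 14.16 ± 0.19 in gated TAU, and Postn at 8.07 ± 0.69, 8.43 ± 0.56 and 11.48 ± 0.22 (SD, n = 4 each). C4b was most like the TNF family ligand gene Tnfsf9 (r = 0.88), Sowahc (r = 0.87) and the interferon-inducible gene Ifi208 (r = 0.87). C1qc was most like the ribosomal protein genes Rps10, Rpl7a and Rpl35 (r = 0.96 each), C1qa like C1qc (r = 0.95), Cuedc2 (0.93) and Uqcr11 (0.91), and C1qb like Mea1 (0.93), 3110040N11Rik (0.92) and Taf10 (0.92). C2, at background, was most like Nagk (0.84), Lgals3 (0.82) and Ehd1 (0.81).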

How the data were processed

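The authors deposited 1 log2 value for each probe set and array, normalized by RMA in Transcriptome Analysis Console per the submitters' processing notes; RNA labelling from 5 ng is per the labels' protocols. Versions, filters and genome build are not given in the sources used here. All 23 samples entered 1 fit in limma 3.58.1 (R 4.3.3) with a mean per group, eBayes without trend, 17 residual and 5.11 prior degrees of freedom, and no further normalization or filter. Contrasts were two-sided. The number of arrays limits the precision (median SE 0.226 for gated APP against WT). The fit was tested on simulated data. A fold from a group at or below background is a bound against that group's 95th percentile of chemosensory receptor probe sets. Symbols came from the platform annotation (19572 of 22203 probe sets with 1 symbol). Named genes were the 10 members, listed complement genes called in a gated group against WT, and the 3 most correlated genes of each called member; the terminal component genes and cell type markers named besides were chosen after their values were seen. Members, lists and motifs were chosen with earlier results of these data known. Alternatives covered scaling, prior, array weights, samples fitted, a Y-linked covariate, dim probe sets, replicate block, background percentile and left-out samples. No protein sequence was used here.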

Additional observations from a re-analysis of the deposited data

Results flagged for a closer look

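Between the gated groups Cfb differed by -3.42 (log2, APP minus TAU; limma adjusted p = 2.07e-07), with all 4 gated TAU samples above all 4 gated APP samples. The change from young to gated TAU exceeded the change with age in WT for Cfb (3.785, adjusted p = 3.92e-06) and for C1qc (1.16, adjusted p = 0.0263).

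Cfp in young WT replicate 3 stood apart at 7.58 from 7 to 7.08 in the other samples of its group, by a gap of 0.862 of the group's range, above Dixon's 95% critical value for 4 samples. It was 1 of 50 member groups examined, of which chance flags about 1 in 20, and all Cfp group means lie below background.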

How the results depend on the processing

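Across the alternatives the Cfb calls in gated TAU, between the gated groups and in the TAU interaction were kept throughout (adjusted p at most 0.000126, 0.00188 and 5.08e-05), and the counts in young APP, young TAU and aged against young WT stayed at 0. Smaller effects depended on the fit, and the cause was not tested. The count of members called in gated APP, 2 as reported, was 1 with quantile normalization or only the groups compared, 4 with the Y-linked covariate, without dim probe sets or with the replicate block, 0 without WT 12 months replicates 2 and 4, and 0 to 4 when single samples were left out. In gated TAU, 6 as reported, it was 3 with only the groups compared and 3 without those WT replicates. For the TAU interaction, 2 as reported, it was 4 with array weights, without dim probe sets or with the replicate block, 1 with the Y-linked covariate or without those WT replicates, and 1 to 3 with single samples left out. For the APP interaction, 0 as reported, it was 1 without dim probe sets or with the replicate block, and 0 to 1 with single samples left out.

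Signs turned in uncalled values. C3ar1 was at -0.0674 in gated APP and -0.0175 in gated TAU with quantile normalization, and at -0.0675 and -0.0775 without WT replicates 2 and 4, when Cpn2 in gated APP was at 0.0425 and C5ar1 in gated TAU at -0.1475. Cfb in the APP interaction was at -0.147 with the Y-linked covariate. With single samples left out, C5ar1 in gated TAU ranged from -0.0208 to 0.2558 and C4b between the gated groups from -0.4492 to 0.0842.

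Of 55 pairs of same-numbered samples from different groups, 28 correlated above 0.1 in their deviations from group means (-0.52 to 0.55). Their median was 0.10, against -0.03 for pairs with other numbers. These values do not settle whether same-numbered samples were paired, and the labels tie the numbers to nothing shared. With the 90th percentile as background, 6 to 8 members were above it per group in place of 5 to 7. Signal over background limits C2, Cfp, Vsig4 and, outside gated TAU, Cfb. It also limits C5ar1 against aged WT, where its mean of 7.99 lay below the background of 8.12.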
